A study of Mus musculus with 6 samples.

Results

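The stress axis genes described here are 9 genes of corticosteroid and corticotropin-releasing hormone (CRH) signaling, taken by gene symbol from the table of hippocampal RNA-Seq values: *Nr3c1*, *Nr3c2*, *Fkbp5*, *Sgk1*, *Tsc22d3*, *Hsd11b1*, *Crh*, *Crhr1*, and *Crhbp*. All 9 were among the 14477 genes listed. The study asked which transcripts differ in the hippocampus when PHF21B, a chromatin protein linked to depression and stress, is depleted. Untreated Phf21bΔ4/Δ4 mice, which carry a CRISPR/Cas9 deletion in exon 4 of *Phf21b* in every cell of the body, were compared at baseline with Phf21b+/+ mice. Both genotypes were kept on a C57BL/6J background, and the study's methods describe its animals as young adult littermates of both sexes. The labels give no age, sex, batch, or dissection record for single animals. Each genotype had 3 libraries of total RNA depleted of ribosomal RNA, with replicate numbers 2, 3, and 6 for Phf21bΔ4/Δ4 and 5, 7, and 8 for Phf21b+/+. The labels do not tie a library to a named animal, so the p-values measure the spread between these libraries.

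Corticosterone from the adrenal gland reaches hippocampal neurons, where it binds the mineralocorticoid receptor (*Nr3c2*) with high affinity and the glucocorticoid receptor (*Nr3c1*) with lower affinity. The enzyme HSD11B1 regenerates active hormone inside cells, FKBP5 holds the glucocorticoid receptor in a state that binds hormone poorly, and the occupied receptor switches on genes such as *Fkbp5*, *Sgk1*, and *Tsc22d3*. The peptide CRH starts the hormonal stress response in the hypothalamus, but it is also made by interneurons of the hippocampus, where it acts on the receptor CRHR1 and is sequestered by the secreted binding protein CRHBP.

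The promoter sequences of a hormone-induced member and of the member whose level differed most clearly are shown first, because the first holds a match to the element known to bind the occupied receptor. They come from RefSeq annotation of GRCm38.p6, in which 7 of the 9 genes had a promoter window and *Nr3c1* and *Crh* had none. The 250 bases before 1 of the 6 annotated starts of *Sgk1* (chr10:21993640-21993889, plus strand) are given with the match to the glucocorticoid response element in capitals.
Sgk1: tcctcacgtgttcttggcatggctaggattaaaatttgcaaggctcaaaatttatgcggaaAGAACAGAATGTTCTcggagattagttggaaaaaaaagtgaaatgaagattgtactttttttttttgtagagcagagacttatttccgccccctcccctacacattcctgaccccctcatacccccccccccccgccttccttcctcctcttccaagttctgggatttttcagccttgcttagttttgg
The palindrome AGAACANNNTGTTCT was searched on both strands, and in this stretch it lies 189 to 175 bases before the start. It was found in 3 of 32851 RefSeq windows of 300 bases (0.00913%), 1 of which is this *Sgk1* window. A looser form, GNACANNNTGTNC, which the palindrome also contains, was in 0.475% of the windows and in no other member. The half-site AGAACA, also part of the palindrome, was in 19.0% of windows and in 4 of the 14 windows of the members. These belonged to *Sgk1* and *Tsc22d3*.

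For *Crhbp*, 157 bases upstream of its annotated starts (chr13:95444925-95445081, minus strand, written 5′ to 3′ along the gene) and a stretch of 30 bases nearer the RefSeq start (chr13:95444878-95444907, minus strand) are given. The shorter stretch lies before the RefSeq start but within an exon of a GENCODE transcript that begins farther upstream. The capitals mark CGTCA, the reverse complement of the cAMP response half-site TGACG, 64 to 60 bases before the RefSeq start.
Crhbp upstream: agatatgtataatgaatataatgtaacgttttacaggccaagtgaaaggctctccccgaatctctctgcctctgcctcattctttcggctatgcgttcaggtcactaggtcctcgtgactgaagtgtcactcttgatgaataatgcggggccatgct
Crhbp half-site: gagctggaccctCGTCAttgccacgcattt
This half-site was in 20.8% of all windows and in 3 of the 14 windows of the members, those of *Crhbp*, *Sgk1*, and *Tsc22d3*. The full cAMP response element TGACGTCA, which contains the half-site, was in 1.79% of all windows and in 0 of the 14 windows of the members. None of the glucocorticoid motifs was found in the *Crhbp* window. A motif match describes the letters of the window and not the binding of a factor.

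Libraries held 20495605 to 24881257 reads on the listed genes, and 3 reads, taken as the smallest level that the depth can show, corresponded to 0.127 to 0.143 CPM (reads scaled to the effective size of the library), which covers counting error only. *Phf21b* itself had 2.15, 3.57, and 3.87 CPM in Phf21bΔ4/Δ4 replicates 2, 3, and 6, and 6.50, 5.23, and 6.47 CPM in Phf21b+/+ replicates 5, 7, and 8. The genotypes did not overlap, although *Phf21b* missed the FDR threshold (FDR 0.141 by limma's moderated test). Several libraries stood apart in markers of tissue composition. Choroid plexus markers summed to 15793 CPM in Phf21b+/+ replicate 7 and 995 CPM in replicate 8, against 27.8 to 87.1 CPM in the other libraries. The dentate granule cell markers *Prox1*, *C1ql2*, and *Dsp* were low in Phf21bΔ4/Δ4 replicates 2 and 3. *Prox1* had 50.4 and 44.4 CPM there against 110 to 149 CPM in the other 4 libraries. *Pcp4* and *Calb1*, of the same marker list, did not set these replicates apart from replicate 6. In replicates 2, 3, and 6, *Pcp4* had 27.7, 47.0, and 41.7 CPM (Phf21b+/+ 73.0 to 89.2 CPM). *Calb1* had 148.9, 125.7, and 120.1 CPM (Phf21b+/+ 149.3 to 168.5 CPM). Of 15 markers of the medial habenula, a region beside the dorsal hippocampus, 14 were called lower in Phf21bΔ4/Δ4 libraries (sums of 16.0 to 22.9 CPM against 201 to 265 CPM), with 0 to 2 reads of *Pou4f1* and 0 to 1 read of *Irx2* in each. All 6 libraries held transcripts of hippocampal neurons: 12 markers of pyramidal and granule neurons were listed and summed to 1090.3 to 1697 CPM. This sum does not measure how much neighboring tissue a library held. These went both ways, 6 with higher and 6 with lower means in Phf21bΔ4/Δ4 libraries. Of the former 2 were called (*Fibcd1* and *Mpped1*), and of the latter 5 did not overlap (*Prox1*, *Calb1*, *Amigo2*, *Pcp4*, and *C1ql2*) but none was called. None of 8 markers of hypothalamus and amygdala, regions where *Crh* is abundant, was listed. Of 5 sex-linked markers, *Xist*, which is expressed in female cells, had 86.9 to 216 CPM in the 6 libraries, and the 4 Y-linked genes were not listed. Every library thus had the *Xist* expression of female tissue, although the labels do not give the sex.

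Of the 9 stress axis genes, 1 passed the test: *Crhbp* rose 1.82-fold in Phf21bΔ4/Δ4 hippocampi. A change had to exceed 1.3-fold with an FDR under 0.1 (limma's moderated test on log2 CPM, with p-values adjusted over all 14477 genes). Of all genes, 1.22% passed in either direction, 0.553% as higher and 0.663% as lower in Phf21bΔ4/Δ4 libraries. The genotypes did not overlap for 2 of the 9 genes, *Crh* and *Crhbp*, both higher in Phf21bΔ4/Δ4 libraries, as was the case for 31.0% of all genes in either direction. At an unadjusted p under 0.05 there were also 2 of the 9, against 23.6% of all genes. The median log2 change of the 9 genes was 0.09, and that of all genes was -0.019. The plot of levels by library shows the 9 genes side by side.

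**Figure D1:**
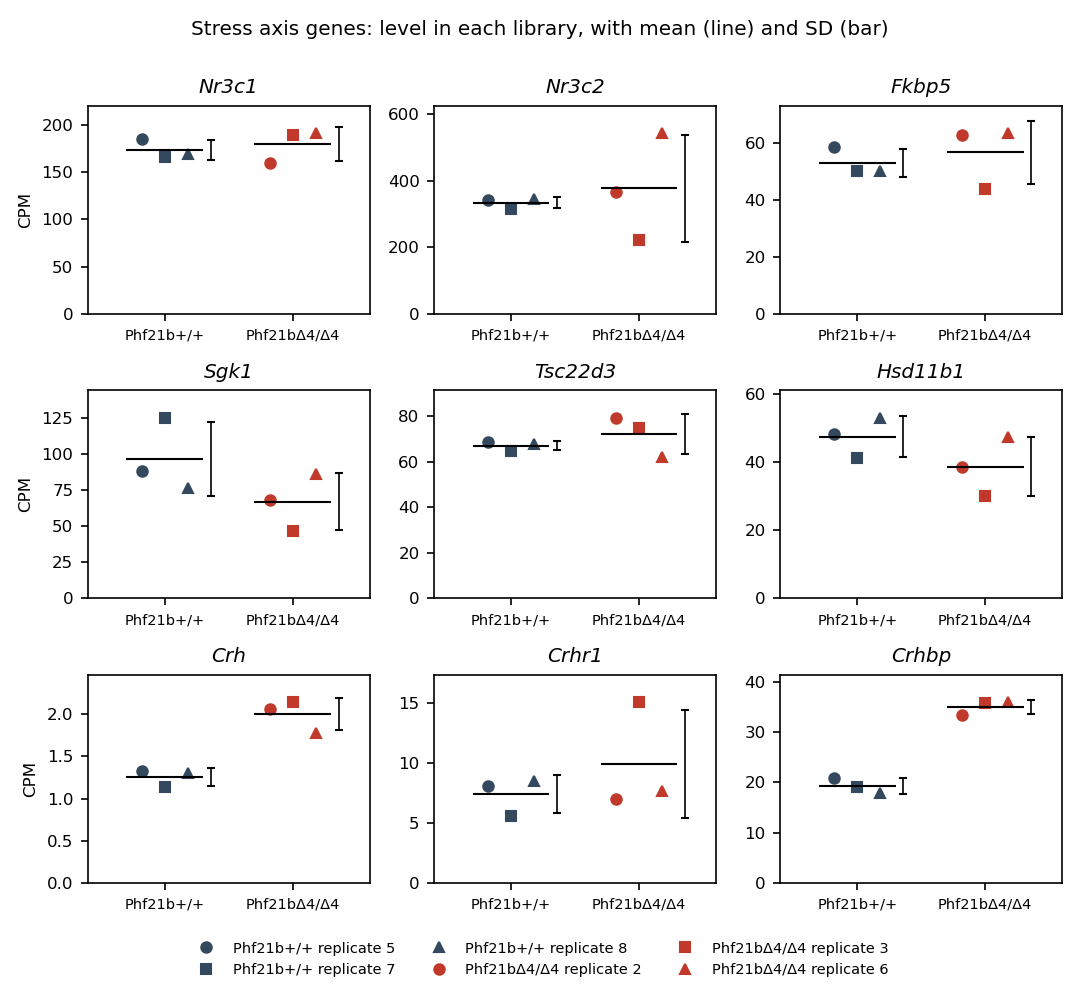
Level of each stress axis gene in CPM (y axis from 0, with a scale of its own in each panel) in the 3 Phf21b+/+ and the 3 Phf21bΔ4/Δ4 libraries (x axis), with 1 symbol per library, the mean as a line, and the SD as a bar. *Crh* and *Crhbp* are the panels without overlap, and the Phf21bΔ4/Δ4 libraries of *Nr3c2* spread from 223 to 544 CPM.

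Neither corticosteroid receptor transcript passed the test. *Nr3c1* (ENSMUSG00000024431.15, chr18:39410545-39519421 of GRCm38, minus strand), the glucocorticoid receptor gene, had 159, 190, and 191 CPM in Phf21bΔ4/Δ4 replicates 2, 3, and 6. It had 185, 166, and 169 CPM in Phf21b+/+ replicates 5, 7, and 8. The genotypes overlapped, and the Phf21bΔ4/Δ4 libraries lay on both sides of the Phf21b+/+ range. Means were 180 ± 17.98 and 173 ± 10.5 CPM (SD, n = 3 each), a log2 change of 0.05 with a 95% interval of -0.18 to 0.29 and an FDR of 0.752 by limma's moderated test. This interval was among the narrowest of the 9 genes and ended inside a 1.3-fold change in both directions, at folds of 0.882 and 1.22.

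*Nr3c2* (ENSMUSG00000031618.13, chr8:76899442-77245012, plus strand), the mineralocorticoid receptor gene, had 367, 223, and 544 CPM in Phf21bΔ4/Δ4 replicates 2, 3, and 6. In Phf21b+/+ replicates 5, 7, and 8 it had 344, 314, and 344 CPM. The highest Phf21bΔ4/Δ4 library was 2.44 times the lowest, whereas the Phf21b+/+ libraries lay within 1.10 times of each other. Means were 378 ± 161 and 334 ± 17.1 CPM (SD, n = 3 each), and the log2 change was 0.09 (95% interval -0.62 to 0.79, FDR 0.871 by limma's moderated test). The direction rested on replicate 6, without which the log2 change was -0.22. It was 0.70 (FDR 0.214 by limma) when both libraries low in dentate markers, Phf21bΔ4/Δ4 replicates 2 and 3, were left out. The part of the dentate markers in this spread was not tested.

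The balance of the receptors within a library, which cancels library size, was taken as the difference in log2 CPM of *Nr3c2* minus *Nr3c1*. It was 1.20, 0.23, and 1.51 in Phf21bΔ4/Δ4 replicates 2, 3, and 6, and 0.89, 0.92, and 1.03 in Phf21b+/+ replicates 5, 7, and 8. Phf21bΔ4/Δ4 libraries thus lay both above and below the narrow Phf21b+/+ range. The means, 0.98 ± 0.67 and 0.95 ± 0.07 (SD, n = 3 each), differed by 0.03 (exact permutation test, 2-sided, p = 1). With 3 libraries against 3, this test cannot give a p below 0.1.

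*Hsd11b1* and *Fkbp5*, which set hormone supply and receptor sensitivity, did not pass the test either. *Hsd11b1* (ENSMUSG00000016194.14, chr1:193221634-193264075, minus strand) had 38.5, 30.2, and 47.5 CPM in Phf21bΔ4/Δ4 replicates 2, 3, and 6, and 48.3, 41.2, and 53.2 CPM in Phf21b+/+ replicates 5, 7, and 8. Replicates 2 and 3 were below every Phf21b+/+ library and replicate 6 was among them. The log2 change was -0.31 (means 38.7 ± 8.63 and 47.5 ± 6.02 CPM, SD, n = 3 each; 95% interval -0.74 to 0.12; FDR 0.314 by limma's moderated test). Without Phf21bΔ4/Δ4 replicate 6 it was -0.47 and passed (FDR 0.0941 by limma), in a fit that called 2830 of all 14477 genes. The log2 change was 0.00666 without replicates 2 and 3. The locus overlaps *Lamb3* on the opposite strand, and the strand setting of the counting is not given in the sources used here, so reads of these genes may not be fully separated.

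*Fkbp5* (ENSMUSG00000024222.17, chr17:28399094-28517527, minus strand), a cochaperone gene that is itself induced by glucocorticoids, had 62.7, 43.7, and 63.5 CPM in Phf21bΔ4/Δ4 replicates 2, 3, and 6. It had 58.5, 50.1, and 50.2 CPM in Phf21b+/+ replicates 5, 7, and 8. As with *Nr3c2*, replicate 3 was below and replicates 2 and 6 were above the Phf21b+/+ range. Means were 56.6 ± 11.2 and 52.9 ± 4.82 CPM (SD, n = 3 each), and the log2 change was 0.08 (95% interval -0.30 to 0.46, FDR 0.765 by limma's moderated test).

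The other glucocorticoid-induced members, *Sgk1* and *Tsc22d3*, had changes of opposite sign, neither past the threshold. *Sgk1* (ENSMUSG00000019970.15, chr10:21882184-21999903, plus strand), which encodes a kinase that regulates ion channels and transporters and whose window with the matched response element is shown above, had 68.3, 46.7, and 86.7 CPM in Phf21bΔ4/Δ4 replicates 2, 3, and 6. In Phf21b+/+ replicates 5, 7, and 8 it had 88.6, 126, and 76.7 CPM. Replicates 2 and 3 were below every Phf21b+/+ library, and the highest value was in Phf21b+/+ replicate 7, the library richest in choroid plexus markers. Means were 67.2 ± 20.0 and 97.0 ± 25.5 CPM (SD, n = 3 each), a log2 change of -0.54 (95% interval -1.17 to 0.09, FDR 0.259 by limma's moderated test). It was -0.30 without Phf21bΔ4/Δ4 replicate 3, -0.34 without Phf21b+/+ replicate 7, and -0.75 without Phf21bΔ4/Δ4 replicate 6. It was -0.44 without both libraries rich in choroid plexus markers and -0.13 without both libraries low in dentate markers, and none of these values passed.

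*Tsc22d3* (ENSMUSG00000031431.13, chrX:140539528-140600659, minus strand), which encodes the anti-inflammatory protein GILZ, had 79.5, 74.7, and 62.3 CPM in Phf21bΔ4/Δ4 replicates 2, 3, and 6, and 68.9, 64.9, and 67.9 CPM in Phf21b+/+ replicates 5, 7, and 8. Here replicate 6 was the lowest of the 6 libraries and replicates 2 and 3 were the highest. Means were 72.2 ± 8.89 and 67.2 ± 2.08 CPM (SD, n = 3 each), and the log2 change was 0.10 (95% interval -0.15 to 0.34, FDR 0.573 by limma's moderated test).

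In 4 of the 9 genes (*Nr3c1*, *Nr3c2*, *Fkbp5*, and *Tsc22d3*), all 3 Phf21bΔ4/Δ4 libraries lay outside the Phf21b+/+ range but on both sides of it, a pattern found in 11.5% of all genes. The SD of log2 CPM was larger in Phf21bΔ4/Δ4 libraries in 8 of the 9 genes, all but *Crhbp*, and in 62.7% of all genes. Replicate 3 was the lowest and replicate 6 the highest Phf21bΔ4/Δ4 library for *Nr3c2*, *Fkbp5*, *Sgk1*, and *Hsd11b1*, as in 22.5% of all genes. These patterns were noticed in the values and are given as a description.

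The CRH genes held the 2 members with the highest positive fold changes, *Crhbp* and *Crh*. *Crhbp* (ENSMUSG00000021680.8, chr13:95431371-95444924, minus strand) had 793, 749, and 826 reads in Phf21bΔ4/Δ4 replicates 2, 3, and 6, which is 33.4, 35.7, and 35.9 CPM. In Phf21b+/+ replicates 5, 7, and 8 it had 440, 450, and 396 reads, or 20.9, 19.0, and 17.8 CPM. Every Phf21bΔ4/Δ4 library was well above every Phf21b+/+ library, and both genotypes were tightly grouped. *Crhbp* rose from 19.2 ± 1.55 to 35.0 ± 1.37 CPM (SD, n = 3 each), a log2 change of 0.87 (standard error 0.09, 95% interval 0.65 to 1.09, FDR 0.0359 by limma's moderated test). The exact permutation test over the 6 libraries gave p = 0.1, the smallest it can give.

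The level difference of *Crhbp* kept its direction when any library was left out, with log2 changes of 0.81 to 0.93. Its FDR by limma was then 0.0146 to 0.185, and the call was lost without Phf21bΔ4/Δ4 replicate 2 (0.117), Phf21b+/+ replicate 7 (0.185), or Phf21b+/+ replicate 8 (0.184). In that order these fits called 28, 14, and 9 of all genes. The unadjusted limma p of *Crhbp* in them was 0.000237, 0.000256, and 0.000305. The fit with the FDR of 0.0146, without Phf21bΔ4/Δ4 replicate 6, called 2830 genes. The log2 change of *Crhbp* was 0.75 without both libraries rich in choroid plexus markers and 0.91 without both libraries low in dentate markers. Each of these fits left a lone library in a genotype, so only the size of the change is given here. In bulk tissue, more cells that express a gene and more RNA in each of them cannot be told apart.

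*Crhbp* is expressed by GABAergic interneurons, somatostatin cells among them, and markers of these cells had higher values in Phf21bΔ4/Δ4 libraries too. Summed over 11 interneuron markers, the level was 1085 to 1294 CPM in Phf21bΔ4/Δ4 and 740 to 849 CPM in Phf21b+/+ libraries. All 11 markers had a higher mean in Phf21bΔ4/Δ4 libraries, 7 did not overlap (15.0% of all genes were higher without overlap), and 1 was called (0.553% of all genes as higher). The called gene was *Gad2* (FDR 0.0831 by limma's moderated test), which encodes a GABA-synthesizing enzyme. The mean log2 CPM of the pan-interneuron genes *Gad1*, *Gad2*, and *Slc32a1* was 6.93 to 7.22 in Phf21bΔ4/Δ4 and 6.41 to 6.65 in Phf21b+/+ libraries. Relative to that mean, a reference chosen after the values were seen, *Crhbp* was at -2.16, -2.04, and -1.76 in Phf21bΔ4/Δ4 replicates 2, 3, and 6 and at -2.05, -2.40, and -2.25 in Phf21b+/+ replicates 5, 7, and 8. On this relative scale the genotypes overlapped, and the difference was 0.25 against 0.87 on the log2 CPM scale. The reference mean was itself 0.62 higher in Phf21bΔ4/Δ4 libraries, which lowers every relative difference by that amount. The interneuron genes *Sst*, *Vip*, and *Lhx6* differed by 0.29, 0.64, and 0.52 on the relative scale, each with overlap. Whether interneuron content or expression per cell accounts for the change was not tested.

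*Crh* (ENSMUSG00000049796.4, chr3:19693401-19695396, minus strand), the peptide gene, was the least expressed of the 9. It had 49, 45, and 41 reads in Phf21bΔ4/Δ4 replicates 2, 3, and 6, which is 2.07, 2.14, and 1.78 CPM. In Phf21b+/+ replicates 5, 7, and 8 it had 28, 27, and 29 reads, or 1.33, 1.14, and 1.303 CPM. The genotypes did not overlap, but *Crh* missed the threshold at a log2 change of 0.67 (means 1.998 ± 0.190 and 1.26 ± 0.103 CPM, SD, n = 3 each; 95% interval 0.12 to 1.21; FDR 0.169 by limma's moderated test). It was past the threshold when libraries were weighted by their quality with limma's arrayWeights (FDR 0.0376), a setting under which 3549 genes were called. The log2 change was 0.41 on the log2(CPM + 1) scale and 1.02 under quantile normalization, and neither passed. Relative to the same pan-interneuron genes, the genotypes overlapped and differed by 0.05 on the log2 scale.

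*Crhr1* (ENSMUSG00000018634.10, chr11:104132855-104175523, plus strand), the CRH receptor gene, had 7.0, 15.1, and 7.66 CPM in Phf21bΔ4/Δ4 replicates 2, 3, and 6. It had 8.11, 5.57, and 8.49 CPM in Phf21b+/+ replicates 5, 7, and 8. Only Phf21bΔ4/Δ4 replicate 3 lay outside the Phf21b+/+ range. Means were 9.92 ± 4.50 and 7.39 ± 1.59 CPM (SD, n = 3 each), and the log2 change was 0.36 (95% interval -0.42 to 1.13, FDR 0.504 by limma's moderated test). Without replicate 3 it was 0.01. The related genes *Crhr2*, *Ucn*, *Ucn2*, and *Ucn3*, a second receptor and its peptide ligands, were not listed and were not analysed here.

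The ratio of the binding protein to the peptide within libraries overlapped between genotypes. The difference in log2 CPM of *Crhbp* minus *Crh* was 4.01, 4.05, and 4.33 in Phf21bΔ4/Δ4 replicates 2, 3, and 6, and 3.97, 4.05, and 3.77 in Phf21b+/+ replicates 5, 7, and 8. Their ranges met, with replicate 3 of Phf21bΔ4/Δ4 and replicate 7 of Phf21b+/+ at nearly the same value. The means, 4.13 ± 0.17 and 3.93 ± 0.15 (SD, n = 3 each), differed by 0.20 (exact permutation test, 2-sided, p = 0.2), which does not show that the ratios are equal. With a larger pseudocount the difference was 0.43, on the log2(CPM + 1) scale, and the exact permutation p was 0.1, the smallest possible. On that scale the log2 change of *Crh* was 0.41 instead of 0.67, and that of *Crhbp* was 0.83 instead of 0.87. Under quantile normalization the difference was reversed, at -0.10 (exact permutation test, p = 0.5).

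**Figure D2:**
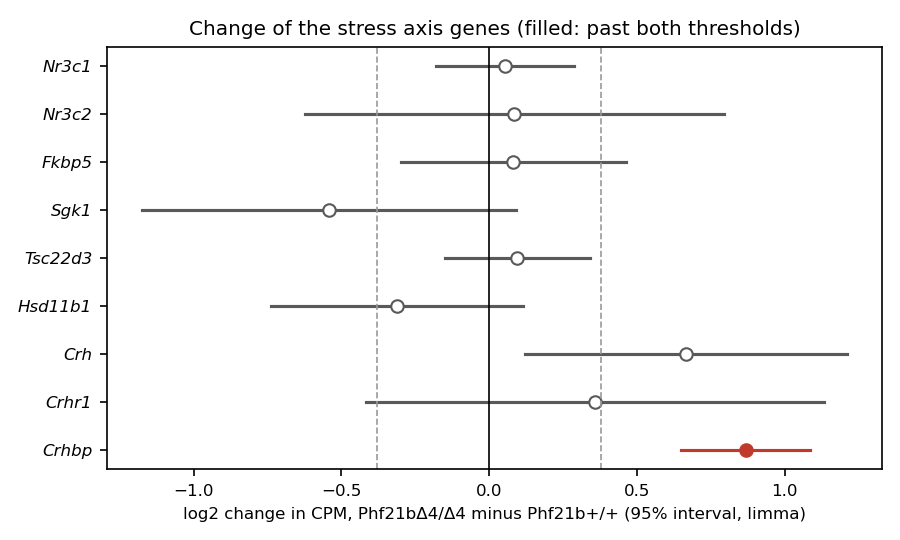
Log2 change in CPM, Phf21bΔ4/Δ4 minus Phf21b+/+ (x axis), of each stress axis gene (y axis), with 95% intervals from limma as bars and dashed lines at a 1.3-fold change. *Crhbp* (filled, 0.87) is the gene whose whole interval, 0.65 to 1.09, lies beyond the dashed line, and the intervals of all but *Crh* and *Crhbp* include 0.

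Per kilobase of exon, which allows levels of different genes to be compared, the mean Phf21b+/+ level was highest for *Nr3c2* (51.6 ± 2.64 CPM per kb), followed by *Nr3c1* (22.6 ± 1.36), *Sgk1* (19.8 ± 5.21), and *Tsc22d3* (15.5 ± 0.479). Below these came *Hsd11b1* (11.2 ± 1.42 CPM per kb), *Crhbp* (10.7 ± 0.863), *Fkbp5* (5.59 ± 0.510), *Crhr1* (3.01 ± 0.646), and *Crh* (0.952 ± 0.0778, all SD, n = 3). The highest and lowest of these means were 54.2 times apart. Among neighbors in this order, *Nr3c1* and *Sgk1*, *Sgk1* and *Tsc22d3*, and *Hsd11b1* and *Crhbp* overlapped between libraries, and the other neighbors did not. In Phf21bΔ4/Δ4 libraries *Crhbp* (19.5 ± 0.759 CPM per kb) moved from rank 6 to rank 3 by mean level. Its lowest library there (18.6 CPM per kb) was just above the highest *Tsc22d3* library (18.3 CPM per kb). The levels span mineralocorticoid receptor transcripts as the most abundant and *Crh* as the least abundant in both genotypes.

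The genes whose log2 CPM followed that of *Crhbp* most closely over the 6 libraries, by Pearson's r among the 12965 genes whose mean log2 CPM reached 1, were *Sorcs3* (r = 0.997), *Gtf3c2* (0.993), *Ranbp2* (0.991), *Dlx1as* (0.989), and *Tbc1d13* (0.988). *Sorcs3*, a sorting receptor gene of neurons, had 79.4, 82.9, and 89.1 CPM in Phf21bΔ4/Δ4 replicates 2, 3, and 6 and 46.4, 43.8, and 40.8 CPM in Phf21b+/+ replicates 5, 7, and 8. It was called higher (log2 change 0.94, FDR 0.0178 by limma's moderated test), as was *Dlx1as* (0.95, FDR 0.0809), which lies antisense to the interneuron gene *Dlx1*. *Dlx1* itself overlapped between genotypes and was not called (log2 change 0.40, FDR 0.467 by limma). *Gtf3c2*, *Ranbp2*, and *Tbc1d13* were not called either (log2 changes 0.30, 0.14, and 0.21). The values of r describe 6 libraries that share their genotype difference, and 91 genes had an r above 0.95. Among the members measured at that level, r with *Crhbp* ran from 0.43 for *Crhr1* to -0.61 for *Sgk1*.

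**Figure D3:**
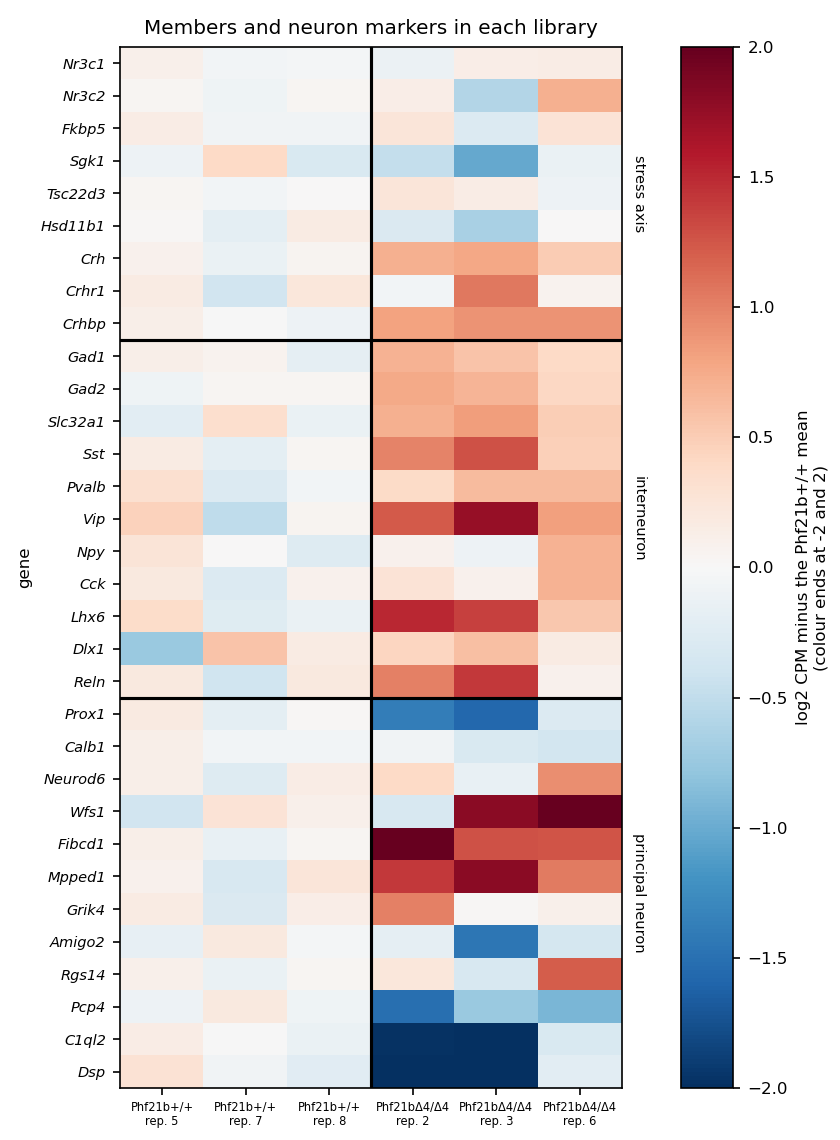
Log2 CPM minus the Phf21b+/+ mean (color, ends at -2 and 2) of the 9 stress axis genes, 11 interneuron markers, and 12 markers of hippocampal principal neurons (rows) in each of the 6 libraries (columns). *Crh*, *Crhbp*, and *Gad2* are higher in all 3 Phf21bΔ4/Δ4 libraries than in any Phf21b+/+ library, while the dentate markers *Prox1*, *C1ql2*, and *Dsp* are low in Phf21bΔ4/Δ4 replicates 2 and 3 and near the Phf21b+/+ levels in replicate 6.

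Beyond the 9 genes, 72 genes in 7 lists of the same pathways were examined, of which 58 were listed and 1 was called (1.72%, against 1.22% of all genes): *Adcyap1*, which fell. The median log2 change of the 58 genes was 0.03. Genotypes did not overlap in 17 of them, 11 higher and 6 lower in Phf21bΔ4/Δ4 libraries, against 31.0% of all genes (15.0% higher and 16.0% lower). The plot of pathway lists gives every gene.

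Of 2 relatives of the corticosteroid receptors examined besides the members, 0 were called by limma. Both had an unadjusted p under 0.05 with higher values in Phf21bΔ4/Δ4 libraries, against 23.6% of all genes in either direction. *Pgr*, the progesterone receptor gene, had 34.5, 47.2, and 22.8 CPM in Phf21bΔ4/Δ4 replicates 2, 3, and 6 and 18.7, 13.3, and 19.0 CPM in Phf21b+/+ replicates 5, 7, and 8. Its genotypes did not overlap, but it missed the threshold (log2 change 0.99, FDR 0.145 by limma's moderated test). *Esr1*, an estrogen receptor gene, had 8.01, 6.91, and 2.44 CPM against 1.99, 1.48, and 2.47 CPM in the same order, so Phf21bΔ4/Δ4 replicate 6 lay within the Phf21b+/+ range. Its means were 5.79 ± 2.95 and 1.98 ± 0.498 CPM (SD, n = 3 each; log2 change 1.40, FDR 0.167 by limma).

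Among 16 listed receptor chaperones and coregulators outside the members, 0 were called by limma, with a median log2 change of 0.20. At an unadjusted p under 0.05 there were 4 of the 16, all with higher values in Phf21bΔ4/Δ4 libraries, against 23.6% of all genes in either direction. Of the 16, 13 had positive log2 changes and 3 negative ones. Genotypes did not overlap in 6 that were higher and 1 that was lower in Phf21bΔ4/Δ4 libraries. Of all genes, 15.0% were higher and 16.0% lower without overlap. The smallest p-values were those of *Nrip1*, a corepressor of nuclear receptors (72.4 ± 8.89 CPM in Phf21b+/+ and 104 ± 8.94 CPM in Phf21bΔ4/Δ4, SD, n = 3 each; FDR 0.129 by limma's moderated test), and *Ncoa1*, a coactivator (185 ± 17.0 and 230 ± 11.4 CPM; FDR 0.149).

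Of the 19 listed glucocorticoid-induced genes outside the members, 0 were called by limma, and 9 had positive log2 changes. Their median log2 change was -0.05, and 4 had an unadjusted p under 0.05, 2 in each direction, against 23.6% of all genes. *Zbtb16*, a transcription factor gene, had 67.9, 69.5, and 55.7 CPM in Phf21bΔ4/Δ4 replicates 2, 3, and 6 and 44.4, 30.1, and 44.4 CPM in Phf21b+/+ replicates 5, 7, and 8 (log2 change 0.71, FDR 0.133 by limma's moderated test). *Nfkbia*, an inhibitor of NF-kB, had 14.2, 12.3, and 15.4 CPM against 17.2, 19.8, and 17.4 CPM in the same order (log2 change -0.38, FDR 0.159 by limma). These genes did not overlap between genotypes, in opposite directions, and neither passed.

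In the list of steroid access and metabolism, 0 of 6 genes outside the members were called by limma. Against 23.6% of all genes, 2 of the 6 had an unadjusted p under 0.05. These were *Hsd17b10*, a mitochondrial dehydrogenase gene (28.5 ± 1.89 CPM in Phf21b+/+ and 23.5 ± 1.54 CPM in Phf21bΔ4/Δ4, SD, n = 3 each; FDR 0.167 by limma's moderated test), and *Abcb1a*, which exports steroids at the blood-brain barrier (19.2 ± 3.36 and 25.9 ± 4.05 CPM; FDR 0.193). Endothelial and pericyte markers summed to 220 to 324 CPM in Phf21bΔ4/Δ4 and 149 to 200 CPM in Phf21b+/+ libraries, and their part in the *Abcb1a* value was not tested.

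Of 6 listed genes of other stress peptides and their receptors, *Adcyap1*, which encodes the peptide PACAP, was called. It had 5.36, 7.76, and 3.31 CPM in Phf21bΔ4/Δ4 replicates 2, 3, and 6 and 22.6, 17.7, and 20.0 CPM in Phf21b+/+ replicates 5, 7, and 8. *Adcyap1* fell 3.88-fold, from 20.1 ± 2.46 to 5.48 ± 2.23 CPM (SD, n = 3 each; FDR 0.0688 by limma's moderated test). The call was kept in 2 of the 6 fits that left out a library (FDR 0.0146 to 0.268 by limma). The medial habenula markers were lower in the same libraries, as were 7 listed thalamus markers (sums of 170.3 to 222 CPM against 271 to 493 CPM), of which *Tcf7l2* was called (log2 change -3.12, FDR 0.0239 by limma). The part of these markers in the *Adcyap1* change was not tested. *Avpr1a*, a vasopressin receptor gene, had 4 to 11 reads in Phf21bΔ4/Δ4 and 8 to 58 reads in Phf21b+/+ libraries and overlapped (FDR 0.210 by limma). The peptides *Avp* and *Oxt* and the receptors *Avpr1b*, *Mc2r*, and *Mc3r* were not listed.

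Of the 9 relatives of SGK1 and TSC22D3 and substrates of SGK1, 0 were called by limma and 0 had an unadjusted p under 0.05. The smallest p-values belonged to *Tsc22d4* (log2 change -0.14, FDR 0.349 by limma's moderated test) and *Sgk3*, a kinase gene with 46.8 CPM in Phf21b+/+ replicate 7, the library richest in choroid plexus markers, and 13.0 to 17.0 CPM in the other 5 libraries (log2 change -0.68, FDR 0.365).

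**Figure D4:**
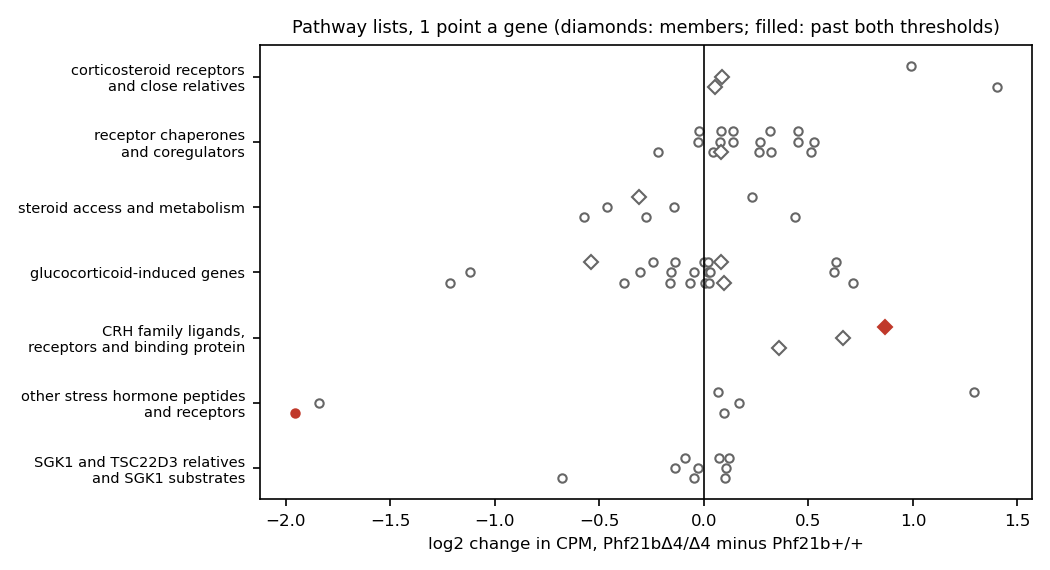
Log2 change in CPM, Phf21bΔ4/Δ4 minus Phf21b+/+ (x axis), of every listed gene of the 7 pathway lists (y axis), with 1 point per gene, diamonds for stress axis members, and filled symbols for genes past both thresholds. The filled points are *Crhbp* (0.87) and *Adcyap1* (-1.96).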

How the data were processed

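RNA was extracted from hippocampi and sequenced after removal of ribosomal RNA. Per the paper's methods and the submitters' processing notes, the authors trimmed reads with Trimmomatic 0.39, mapped them to GRCm38 with STAR 2.7.3a, summarized them over GENCODE genes with featureCounts of Subread 1.6.4, dropped genes that did not reach 1 CPM in 2 or more samples, and scaled the counts with edgeR's effective library sizes. Deposited by the authors were log2 CPM values, 1 column per library. The prior count and the strand setting are not given in the sources used here.

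Low values rose in steps of 1 read. Reads were worked out from these steps (100% whole within 0.1 reads) and used for depth, CPM, and voom. Libraries were grouped by the genotype in their labels. The authors' own test, edgeR's, needs counts, so the log2 values were compared here with limma 3.58.1 in R 4.3.3 (lmFit, eBayes with a mean-variance trend, no covariate), 2-sided, with Benjamini-Hochberg adjustment over 14477 genes and the study's thresholds. Tables were computed with pandas 2.3.3 in Python 3.11.15, permutation tests with SciPy 1.17.1, and plots with matplotlib 3.10.9. The test was run on simulated data first. Positions and exon lengths are GENCODE's for GRCm38 (98.7% of symbols matched), and sequences are from RefSeq.

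The members and lists were chosen with earlier results of these data known. Named were the 9 members, *Phf21b*, up to 4 called genes of each pathway list by smallest p (where fewer than 2 passed, the genes of smallest p up to 2), marker genes that a result turns on, and the 5 genes most like each called member. Some genes of the lists were left out and are not reported here. Alternatives were another prior variance, robust empirical Bayes, arrayWeights, a filter on low values, other pseudocounts (1 and 0.1 CPM), quantile normalization, median centering, GC correction, voom, other thresholds, and leaving out libraries.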

Additional observations from a re-analysis of the deposited data

How the results depend on the processing

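The threshold was passed by 1 of the 9 members, 176 of all genes, and 1 pathway gene outside the members. The number of members was 3 under arrayWeights (*Hsd11b1*, *Crh*, and *Crhbp*), 0 to 2 when each library was left out, 0 without both libraries rich in choroid plexus markers, and 0 without both low in dentate markers. These 2 exclusions were chosen after seeing the data, and with fewer libraries the lone remaining library is assumed to vary like the others. For all genes it was 75 with the same prior variance, 3549 under arrayWeights, 101 with the filter on low values, 9 to 2830 with a library left out, 0 and 49 without those pairs of libraries, and 25 at an FDR under 0.05. For pathway genes it was 0 with the same prior variance, 13 under arrayWeights, 0 to 13 with a library left out, 0 and 1 without the pairs, and 0 at an FDR under 0.05. Calls were 80 higher and 96 lower, but 13 and 62 with the same prior variance 55 and 46 with the filter, 104 and 94 with median centering, 2 and 12 without Phf21b+/+ replicate 7, and 0 and 9 without Phf21b+/+ replicate 8. *Crhbp* was called in 13 of 18 alternatives, with log2 changes of 0.75 to 0.93 and FDRs of 0.00559 to 0.945 by limma. Log2 changes of uncalled members changed sign under some settings: *Nr3c1* was -0.0237 under arrayWeights, -0.0867 under quantile normalization, and -0.0452 without the choroid plexus-rich pair. *Nr3c2* was -0.14 under quantile normalization and -0.22 to 0.42 with a library left out, *Fkbp5* -0.0668 without the choroid plexus-rich pair and -0.0110 to 0.26 with a library left out, and without the dentate-low pair *Tsc22d3* was -0.11 and *Hsd11b1* 0.00666. The *Nr3c2* to *Nr3c1* balance was -0.0490 under quantile normalization, -0.000889 with GC correction, and -0.23 to 0.41 with a library left out. The *Crhbp* to *Crh* balance was -0.10 under quantile normalization, 0.43 and 0.24 with pseudocounts of 1 and 0.1 CPM (exact permutation p = 0.1 for both), and 0.10 to 0.26 with a library left out. The cause was not tested. *Crh* has no value under the filter on low values. No paired analysis was possible because the labels give no litter or other pairing of the libraries. At 27 to 49 reads, *Crh* is the member that depth limits most.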
